A study of Mus musculus with 9 samples.

Results

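The 35 genes described here carry pyruvate into mitochondria, convert it to acetyl-CoA or oxaloacetate, run the tricarboxylic acid (TCA) cycle and feed it from glutamate and aspartate. They were taken by symbol from the deposited expression table, and all 35 were found among its 30411 genes. Succinate dehydrogenase is not among them. RNA was sequenced from HEI-OC1 cells, a conditionally immortalised mouse line derived from cochlear cells of the organ of Corti, where sound is sensed. The 9 libraries form 3 groups of 3: cells that met a catalytic nanoreactor and then hydrogen peroxide (pretreated H2O2), cells given hydrogen peroxide alone (H2O2), and untreated cells (control). The agent is spelled HCS@Se, SCGS or HSC@Se in different labels, and these were taken as the same nanoreactor. No dose or exposure time is given, and without a group that had the nanoreactor alone, its own effect and its effect on the H2O2 response cannot be told apart. All groups are the same line, and the labels number the libraries as biosamples without saying whether they came from separate cultures, so p-values measure only the spread between these libraries, which may be technical.

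Pyruvate made by glycolysis enters the mitochondrial matrix through a carrier of Mpc1 and Mpc2, where the pyruvate dehydrogenase complex turns it into acetyl-CoA and pyruvate carboxylase turns it into oxaloacetate. Kinases switch the dehydrogenase complex off and phosphatases switch it on again. Citrate synthase joins acetyl-CoA to oxaloacetate, the cycle oxidises the citrate back to oxaloacetate while NADH is made, and carbon that enters from glutamate, aspartate or pyruvate carboxylase replaces what is withdrawn for synthesis, which is called anaplerosis. In the mouse cochlea, isocitrate dehydrogenase 2 is known as a source of mitochondrial NADPH, which keeps glutathione reduced.

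Libraries held between 55395418 and 67215208 deposited counts. Counts from the mitochondrial chromosome made up 0.879% to 0.910% of a pretreated H2O2 library, 1.01% of each H2O2 library and 2.59% to 2.73% of a control library. Between 24043 and 24141 genes had a count in pretreated H2O2 libraries, against 20502 to 20920 in H2O2 and 20102 to 20741 in control libraries. Hmox1, the heme oxygenase induced by oxidative stress, measured 1505, 1545 and 1532 CPM (counts scaled to library size) in pretreated H2O2, 123, 132 and 129.9 CPM in H2O2 and 84.0, 83.8 and 87.1 CPM in control. Hspa1b, an inducible HSP70 chaperone, measured 5.25, 5.17 and 5.41 CPM in pretreated H2O2, 86.6, 90.4 and 87.2 CPM in H2O2 and 12.1, 13.1 and 13.4 CPM in control. Hair cell and supporting cell markers were near absent: 5 of the 10 listed (Atoh1, Slc26a5, Tmc1, Sox2 and Prox1) had no count in any library, and the list summed to 0.580 to 0.778 CPM in pretreated H2O2, 0.265 to 0.456 CPM in H2O2 and 0.196 to 0.394 CPM in control. Fibroblast markers (5 of 5 with a count) summed to 1150 to 1180 CPM in pretreated H2O2, 1660 to 1670 CPM in H2O2 and 2460 to 2480 CPM in control. Most of that sum was Col1a1, with means of 928 CPM in pretreated H2O2, 1094 CPM in H2O2 and 1598 CPM in control. Dcn was near absent and went the other way, with means of 0.265, 0.0405 and 0 CPM in that order. Epithelial markers (4 of 4 with a count) summed to 1.77 to 2.13 CPM in pretreated H2O2, 0.548 to 0.796 CPM in H2O2 and 0.232 to 0.470 CPM in control. Among them, Epcam and Krt18 had means of only 0.333 and 1.67 counts. These shares and marker sums moved with the groups compared below, and their part in any result was not tested. In RNA from whole cultures, fewer cells expressing a gene and less RNA of it per cell cannot be told apart.

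In cells given H2O2 alone, most of the 35 genes stood slightly above control, among them both pyruvate carriers, the 3 chains of NAD-dependent isocitrate dehydrogenase, fumarase and both malate dehydrogenases. With a called gene defined as one with a Benjamini-Hochberg adjusted p under 0.05 in edgeR's quasi-likelihood test, 23 of the 35 rose, 3 fell (Pdp1, Pcx and Ogdh) and 9 were not called. The corresponding shares over the 18092 genes fitted were 24.6% up and 24.1% down, 48.7% in all. In 23 members every H2O2 library lay above every control library, and in 5 every one lay below, against 28.3% and 27.6% of all genes, 55.9% in all. The changes were small: called members ran from a 1.37-fold fall (Pcx) to a 1.36-fold rise (Mdh2, Fh1 and Idh3b), with a median log2 fold change over the 35 genes of 0.24, against 0.02 over all genes tested. No member reached a 1.5-fold change, the second call rule, which 15.3% of all genes met, 5.61% upward and 9.73% downward. With per-library offsets for transcript length and GC content added to the fit, 18 members were called higher and 3 lower (Pcx, Dld and Idh1). The median dropped to 0.08, against -0.017 over all genes. Those offsets kept 18 of the 26 calls and ended the other 8, among them those of Pdp1 and Ogdh. Of the calls kept, 11 had a change over 1.5 times smaller and 1 a change over 1.5 times larger. Dld, Idh1 and Pdp2, the last now higher, were called with the offsets only. The offsets were fitted to each library's deviation from the mean of all libraries, whatever its treatment. They therefore also take out treatment differences that follow length or GC content, which cannot be told apart from technical ones here.

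Set against H2O2 alone, cells pretreated with the nanoreactor had lower RNA for most members. The largest falls were those of both NADP-dependent isocitrate dehydrogenases, Idh1 and Idh2, and of Pdk2 and Me3. Among these, only Idh2 had been called higher with H2O2 alone. Of the 35 genes, 24 fell, 5 rose (Dld, Pdk1, Pck2, Got1 and Glud1) and 6 were not called. Of all genes, 31.3% fell and 32.4% rose by the same call, 63.6% in all. All pretreated libraries lay below all H2O2 libraries in 25 members and above them in 4, against 33.6% and 36.1% of all genes, 69.7% in all. Of all called genes 50.9% rose, against 37.7% with limma on log2(FPKM + 1) over the 11340 genes that passed its filter, where the median of all genes was -0.12, and 53.2% with limma on all 30411 genes, where it was 0.01. Idh1 (2.35-fold), Pdk2 (1.89-fold), Me3 (1.62-fold) and Idh2 (1.53-fold) were the 4 members that fell by 1.5-fold or more. Of all genes, 11.7% met that rule downward and 32.4% met it in either direction. With limma on log2(FPKM + 1), 2 members passed it. That fit kept 33 members after its filter, without Me3, and its pseudocount makes folds smaller at low FPKM. Pdk2, for example, had means of 0.634 FPKM in pretreated H2O2 and 1.22 FPKM in H2O2. No member rose by 1.5-fold or more, against 20.7% of all genes. The median log2 fold change of the members was -0.25, against 0.02 over all genes tested, and -0.12 with the length and GC offsets, under which 5 members were called higher and 20 lower.

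Against control, 11 members were called higher in the pretreated cells, 11 lower and 13 were not called. Across all genes, 33.7% rose and 29.5% fell, 63.1% in all, so members were called about as often as genes at large. Pretreated libraries lay wholly above control libraries in 10 members and wholly below in 11, against 37.3% and 31.6% of all genes, 68.9% in all. Rises made up 53.3% of all called genes, against 41.0% with limma on the same 11340 genes and 54.1% with limma on all 30411. The rises were led by Pck2 (1.44-fold), Got1 (1.36-fold) and Glud1 (1.24-fold), and the falls by Idh1 (2.54-fold), Pdk2 (1.77-fold), Pcx (1.58-fold) and Pdp2 (1.53-fold). Those 4 were the members past 1.5-fold in the downward direction, which 14.6% of all genes met, and no member passed it upward, which 18.9% of all genes did, 33.5% in all. With limma on log2(FPKM + 1), where the pseudocount makes folds smaller at low FPKM, 2 members were past it. The members' median was 0.04, against 0.06 over all genes. With library totals in place of TMM scaling, limma on the same 11340 genes and the length and GC offsets, it was -0.01 each time. The medians over all genes were then 0.021, -0.065 and 0.03. With DESeq2, counts divided by 4 and a filter at 1 CPM, the members' median was 0.07, 0.08 and 0.11. Over all genes it was then 0.093, 0.043 and 0.039. With only genes of at least 1 CPM kept, 18 members were called higher and 10 lower. The 3 comparisons share libraries in pairs, so their values stand side by side and are not independent.

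**Figure D1:**
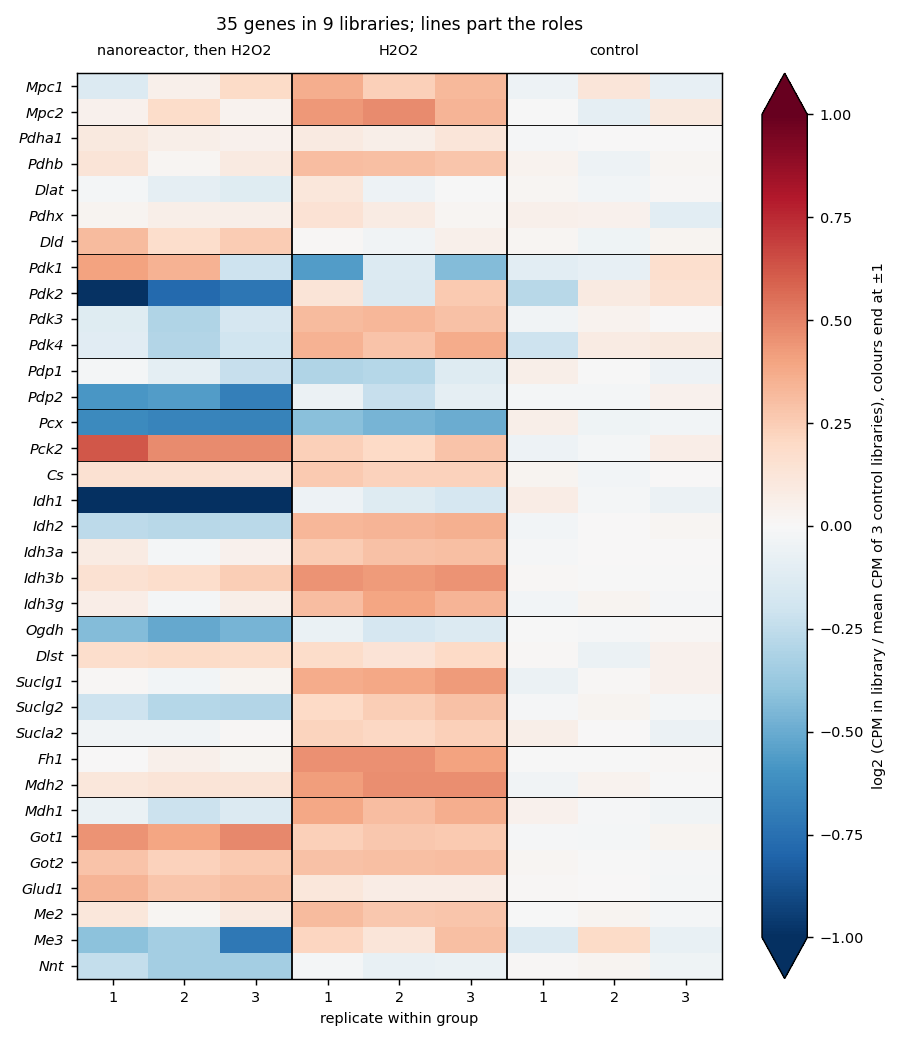
Each row is 1 of the 35 genes and each column 1 library (pretreated H2O2, H2O2, control, replicates 1 to 3), coloured by log2 of the library's CPM over the mean CPM of the 3 control libraries, with colours ending at ±1. Most rows are red in the H2O2 columns and paler or blue in the pretreated H2O2 columns, while Pck2, Got1 and Glud1 are reddest after pretreatment and Idh1 and Pdk2 darkest blue.

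Levels of different genes were compared in FPKM as deposited, the fragment level scaled to library size and to a length per gene. How that length was set is not known here, and it need not be that of the main transcript. The order of genes and the shares between genes depend on it. In pretreated H2O2, Mdh2 and Cs had means of 453 and 449 CPM but 115 and 70.4 FPKM. Fh1 and Dlst had 109 and 228 CPM there but 29.2 and 21.6 FPKM. Mdh2, the mitochondrial malate dehydrogenase, had the highest FPKM of any member in all groups. It measured 115 ± 0.807 FPKM in pretreated H2O2, 148 ± 2.27 FPKM in H2O2 and 109 ± 2.62 FPKM in control (SD, n = 3 each). In control, Mdh2 was followed by Idh2 (79.5 ± 1.21 FPKM), Mdh1 (75.4 ± 2.21 FPKM), Got2 (68.8 ± 1.08 FPKM), Pdha1 (66.96 ± 0.41 FPKM) and Cs (65.4 ± 1.28 FPKM). Pdha1 and Cs differed there by less than the sum of their SDs. The lowest FPKM were those of Pdk2, Me3 and Pdk1, each below 2 FPKM in every group. Pdk1 stood at 0.276 ± 0.0613 FPKM in pretreated H2O2, 0.190 ± 0.0290 FPKM in H2O2 and 0.247 ± 0.0276 FPKM in control. Summed over the 35 genes, the level was 1017 ± 14.7 FPKM in pretreated H2O2, 1219 ± 9.78 FPKM in H2O2 and 1036 ± 1.88 FPKM in control (SD, n = 3 each). As a share of all FPKM these sums were 0.358%, 0.397% and 0.362% for pretreated H2O2, H2O2 and control. The summed level was highest with H2O2 alone, and this difference was not tested, since the members were chosen.

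**Figure D2:**
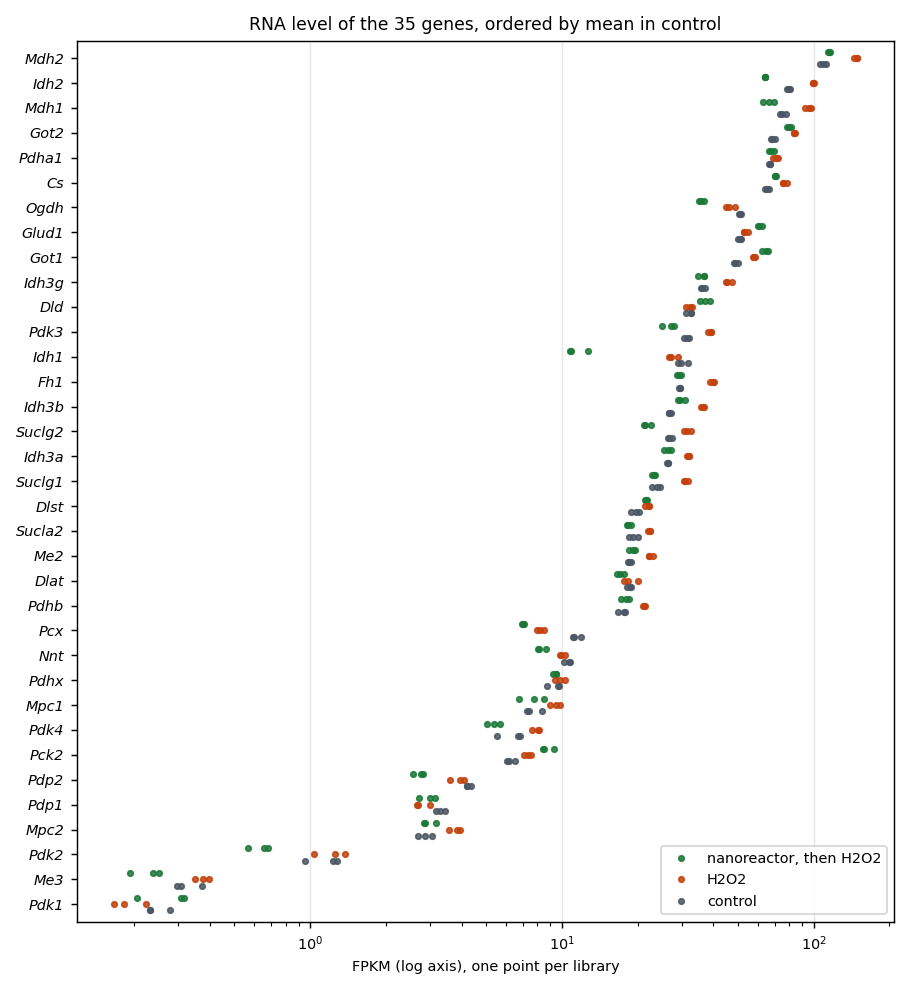
FPKM of each gene on a log axis, 1 point per library, for pretreated H2O2 (green), H2O2 (orange) and control (grey), ordered by the control mean. The genes span from Mdh2 near 109 FPKM to Pdk1 near 0.247 FPKM in control, and the green points of Idh1 stand apart to the left of both other groups.

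The mitochondrial pyruvate carrier is a pair of small inner membrane proteins, Mpc1 and Mpc2, and both genes rose with H2O2 alone and fell again after pretreatment, relative to H2O2 alone. Mpc2 measured 23.2, 25.6 and 23.1 CPM in pretreated H2O2, 30.5, 31.3 and 28.4 CPM in H2O2 and 22.4, 21.1 and 24.1 CPM in control. The 3 H2O2 libraries were the highest and overlapped with neither other group, while pretreated and control libraries overlapped. The log2 fold change of Mpc2 was 0.42 ± 0.07 for H2O2 against control (SE, edgeR adjusted p = 0.000283), -0.33 ± 0.07 for pretreated H2O2 against H2O2 (adjusted p = 0.00129) and 0.09 ± 0.071 for pretreated H2O2 against control (adjusted p = 0.299), where a filter at 1 CPM (0.16) and offsets for length and GC content (0.19) gave a call. Mpc1 ranged over 15.6 to 19.6 CPM in pretreated H2O2, 20.3 to 22.1 CPM in H2O2 and 16.2 to 18.6 CPM in control. Its log2 fold change was 0.31 ± 0.091 for H2O2 against control (adjusted p = 0.0133) and -0.27 ± 0.091 for pretreated H2O2 against H2O2 (adjusted p = 0.0208). Both calls of Mpc1 depended on the settings and libraries used. The first turned to -0.08 with the length and GC offsets and lost its call without control replicate 3 (0.27). The second came to -0.03 with the offsets, and was lost with DESeq2 size factors (-0.22), with a filter at 1 CPM (-0.19) and without H2O2 replicate 1 (-0.24), H2O2 replicate 3 (-0.27) or pretreated H2O2 replicate 1 (-0.18). Mpc1 also has a processed copy, Mpc1-ps, with a mean of 731 counts against 1175 counts for Mpc1, and reads could be split between them.

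Of the 5 genes of the pyruvate dehydrogenase complex, 2 rose with H2O2 alone, and after pretreatment 1 rose and 1 fell relative to H2O2 alone. Over all genes, 48.7% were called in the first of these comparisons and 63.6% in the second, so calls were not more frequent in this complex. Pdha1 and Pdhb encode the alpha and beta chains of its decarboxylating E1 part, Dlat the E2 acetyltransferase, Pdhx the protein that binds E3 to the core, and Dld the E3 dihydrolipoamide dehydrogenase, which the 2-oxoglutarate dehydrogenase complex uses too. Pdha1 ranged over 276 to 287 CPM in pretreated H2O2, 279 to 291 CPM in H2O2 and 266 to 269 CPM in control. Pdhb ranged over 73.1 to 78.8 CPM in pretreated H2O2, 87.6 to 89.3 CPM in H2O2 and 69.4 to 73.8 CPM in control. With H2O2 alone, Pdhb rose by a log2 fold change of 0.30 (adjusted p = 1.44e-05; 0.10 with the length and GC offsets) and Pdha1 by 0.09 (adjusted p = 0.00796), which turned to -0.03 with the offsets. Dlat (0.02), Pdhx (0.08) and Dld (0.01) were not called, although the offsets called Dld lower (-0.16, adjusted p = 0.00185). Dlat ranged over 89.5 to 95.8 CPM in pretreated H2O2, 93.7 to 105 CPM in H2O2 and 95.2 to 98.7 CPM in control. Pdhx ranged over 40.2 to 41.2 CPM in pretreated H2O2, 40.0 to 43.7 CPM in H2O2 and 36.8 to 40.9 CPM in control. Dld stood out after pretreatment, with 158, 143 and 151 CPM in pretreated H2O2, 128, 124 and 132 CPM in H2O2 and 128, 123 and 129 CPM in control. All 3 pretreated libraries lay above the other 6, which overlapped with each other. Dld rose by a log2 fold change of 0.24 ± 0.037 in pretreated H2O2 against H2O2 (adjusted p = 0.000105), which became 0.42 with the offsets, and by 0.25 ± 0.037 against control (adjusted p = 7.46e-05). Pdhb fell by 0.22 on the log2 scale in pretreated H2O2 against H2O2 (adjusted p = 0.000163), a call that the offsets ended at -0.06, while Pdha1 (-0.02), Dlat (-0.10) and Pdhx (-0.04) were not called. Pdha1 was called there in both directions under alternatives, higher with the offsets (0.10) and a filter at 1 CPM (0.06) and lower with library totals in place of TMM scaling (-0.06). Dlat was called lower with library totals (-0.13), with limma on filtered FPKM (-0.12 and -0.13 at the 2 pseudocounts), with the replicate number as a block (-0.10) and without H2O2 replicate 2 (-0.14) or pretreated H2O2 replicate 1 (-0.12). Against control, pretreated cells had Pdha1 higher by 0.07 (adjusted p = 0.0291), a call lost when any 1 of control replicates 1, 2 and 3 or pretreated H2O2 replicates 1 and 2 was left out (0.05 to 0.07), with no filter on low counts (0.05), with only the 6 libraries compared (0.05), and with library totals or limma (0.02). Pdhb (0.08), Dlat (-0.08) and Pdhx (0.05) were not called there. DESeq2 or its size factors (0.11), a filter at 1 CPM (0.16), counts divided by 4 (0.12), the replicate block (0.08) and leaving out pretreated H2O2 replicate 2 (0.11) called Pdhb higher. Library totals (-0.12), limma on filtered FPKM (-0.11 and -0.12), only the 6 libraries compared (-0.09) and leaving out H2O2 replicate 1 (-0.08) called Dlat lower, and a filter at 1 CPM called Pdhx higher (0.12).

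The kinases that phosphorylate and switch off the E1 part, Pdk1 to Pdk4, were mostly lower after pretreatment than with H2O2 alone. Pdk3 was the main kinase of these cells, at 80.9% ± 0.36 of the summed FPKM of the 4 kinase genes in pretreated H2O2, 80.6% ± 0.87 in H2O2 and 80.3% ± 1.6 in control (SD, n = 3 each), followed by Pdk4 at 16.3% in pretreated H2O2, 16.5% in H2O2 and 16.2% in control. Pdk3 ranged over 70.2 to 79.1 CPM in pretreated H2O2, 106 to 109 CPM in H2O2 and 84.0 to 88.3 CPM in control, with no overlap between the groups. It fell by 0.51 on the log2 scale in pretreated H2O2 against H2O2 (adjusted p = 2.65e-07) and by 0.19 against control (adjusted p = 0.00113), and rose by 0.31 in H2O2 against control (adjusted p = 2.83e-05), where the offsets left 0.07 and no call. Pdk4, the kinase induced by fasting and fatty acids in other tissues, measured 22.1, 19.5 and 20.9 CPM in pretreated H2O2, 30.5, 29.1 and 30.8 CPM in H2O2 and 20.7, 25.4 and 25.6 CPM in control. The H2O2 libraries were the highest, and pretreated and control libraries overlapped through control replicate 1. Its log2 fold change was -0.53 ± 0.084 in pretreated H2O2 against H2O2 (adjusted p = 0.000118), 0.33 ± 0.084 in H2O2 against control (adjusted p = 0.00496), and -0.20 ± 0.084 in pretreated H2O2 against control, where it was not called (adjusted p = 0.0569). That fall was called without control replicate 1 (-0.30) or pretreated H2O2 replicate 1 (-0.24), with library totals (-0.24) and with limma on filtered FPKM (-0.20 and -0.23).

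Pdk2 and Pdk1 were the rare kinases of these cells. Pdk2 measured 1.98, 2.29 and 2.38 CPM in pretreated H2O2, 4.29, 3.56 and 4.71 CPM in H2O2 and 3.23, 4.18 and 4.36 CPM in control. Every pretreated library lay below the other 6 libraries. It fell by 0.92 on the log2 scale in pretreated H2O2 against H2O2 (SE 0.17, adjusted p = 0.000464) and by 0.82 against control (SE 0.17, adjusted p = 0.00106), and was not called in H2O2 against control (0.09 ± 0.17, adjusted p = 0.697). Pdk1, the kinase known as a target of the hypoxia factor HIF-1, measured 2.75, 2.64 and 1.79 CPM in pretreated H2O2, 1.41, 1.89 and 1.53 CPM in H2O2 and 1.93, 1.97 and 2.33 CPM in control. Pretreated H2O2 replicate 3 lay below H2O2 replicate 2, so these groups overlapped. Pdk1 had a log2 fold change of 0.57 ± 0.21 in pretreated H2O2 against H2O2 (adjusted p = 0.0335), a call lost without H2O2 replicate 1 (0.48), H2O2 replicate 3 (0.53), pretreated H2O2 replicate 1 (0.47) or pretreated H2O2 replicate 2 (0.50), with no filter on low counts (0.56), with only the 6 libraries compared (0.57), with unfiltered limma (0.10) and with the offsets (0.48).

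Of the phosphatases that reactivate the complex, Pdp1 encodes the calcium-stimulated catalytic subunit and Pdp2 a second catalytic subunit. Pdp2 measured 17.3, 17.6 and 16.1 CPM in pretreated H2O2, 25.0, 22.1 and 24.4 CPM in H2O2 and 25.6, 25.6 and 26.7 CPM in control. The 3 groups did not overlap, with pretreated libraries lowest, although H2O2 against control was not called (-0.12 ± 0.068, adjusted p = 0.156) and became 0.19 with the offsets, which called it higher (adjusted p = 0.0468). Pdp2 fell by 0.48 on the log2 scale in pretreated H2O2 against H2O2 (SE 0.069, adjusted p = 4.93e-05) and by 0.61 against control (SE 0.069, adjusted p = 6.49e-06). Pdp1 measured 15.7, 14.9 and 13.6 CPM in pretreated H2O2, 13.0, 13.1 and 14.6 CPM in H2O2 and 16.5, 15.9 and 15.4 CPM in control. H2O2 libraries lay below all control libraries, with pretreated libraries overlapping both groups. Its fall with H2O2 alone (-0.23 ± 0.085, adjusted p = 0.037) lost its call when any of control replicates 1, 2 and 3 or H2O2 replicates 1 and 2 was left out (-0.26 to -0.21), with no filter on low counts (-0.24), with the replicate block (-0.23) and with the offsets (-0.13). Pdp1 was not called in pretreated H2O2 against H2O2 (0.12) except with a filter at 1 CPM (0.20), nor in pretreated H2O2 against control (-0.11). Pdp1 made up 52.1% ± 1.1 of the summed FPKM of both phosphatase genes in pretreated H2O2, 41.7% ± 2.0 in H2O2 and 43.6% ± 1.4 in control (SD, n = 3 each), a difference that was not tested.

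**Figure D3:**
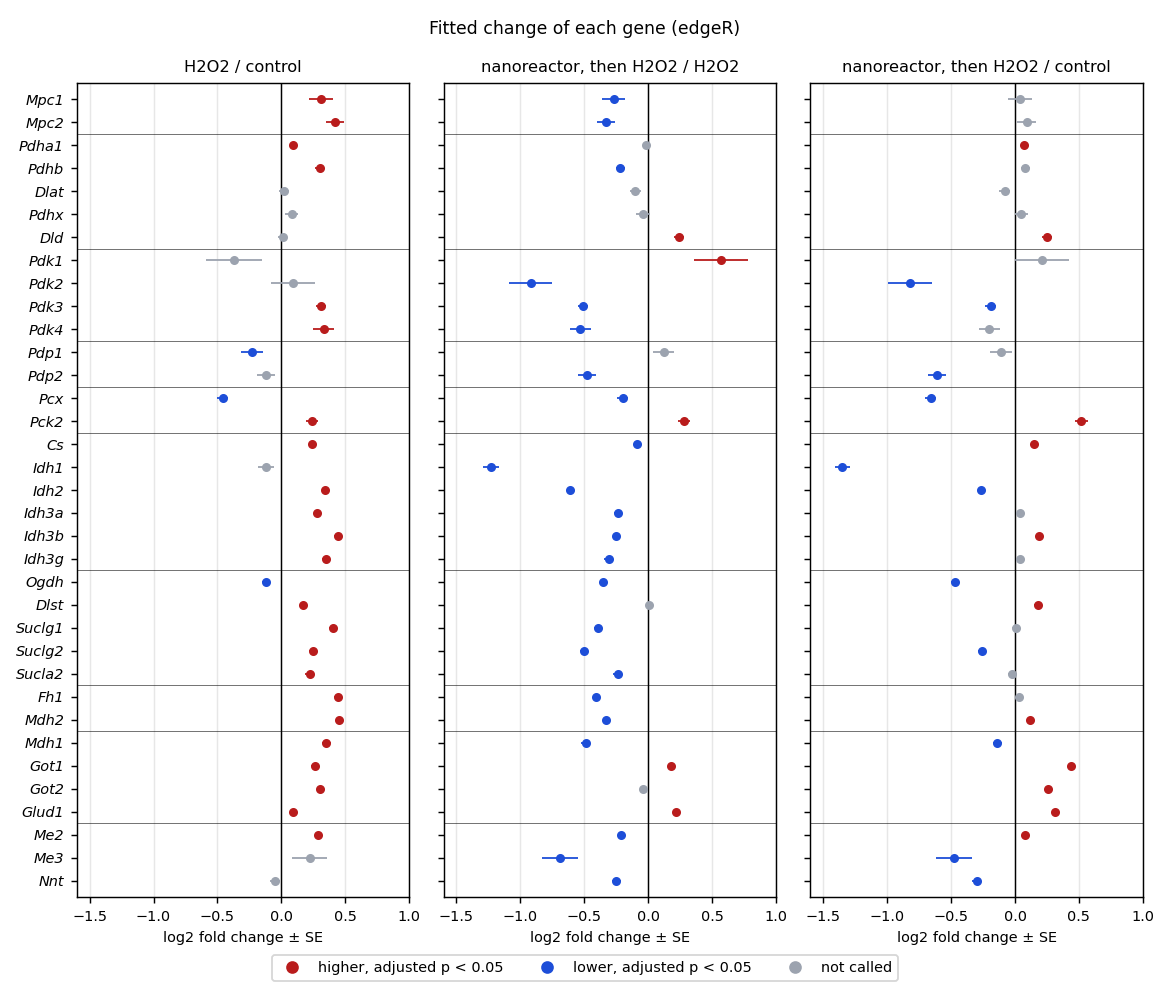
Fitted log2 fold change with its SE for each of the 35 genes in the 3 comparisons, grouped by role between the grey lines; red points were called higher, blue points lower and grey points were not called. Most points are red on the left (23 of 35) and blue in the middle (24 of 35), and the right panel holds 11 of each colour.

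Pyruvate carboxylase (Pcx), which makes oxaloacetate from pyruvate, was the member that fell furthest with H2O2 alone. Pcx (ENSMUSG00000024892, chr19:4510472-4621752 on GRCm38) measured 37.3, 36.7 and 36.5 CPM in pretreated H2O2, 43.4, 42.1 and 41.2 CPM in H2O2 and 60.6, 56.4 and 57.1 CPM in control. The groups did not overlap, with control highest and pretreated libraries lowest. Pcx fell by 0.46 on the log2 scale in H2O2 against control (SE 0.042, adjusted p = 1.17e-06), by 0.20 in pretreated H2O2 against H2O2 (adjusted p = 0.00129; -0.35 with the offsets) and by 0.66 in pretreated H2O2 against control (adjusted p = 3.14e-08). Lrfn4, a synaptic adhesion gene on the opposite strand, lies within the span of Pcx over 3883 bp and had a mean of 4973 counts against 2864 for Pcx, so without knowledge of strand in counting, reads of both genes cannot be told apart. Lrfn4 itself measured 85.8 to 87.8 CPM in pretreated H2O2, 73.6 to 75.0 CPM in H2O2 and 72.6 to 77.6 CPM in control.

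Pck2, the mitochondrial phosphoenolpyruvate carboxykinase that draws oxaloacetate off the cycle, rose in each comparison. It measured 80.5, 72.7 and 72.8 CPM in pretreated H2O2, 61.7, 60.1 and 63.7 CPM in H2O2 and 50.7, 51.7 and 54.8 CPM in control, and the 3 groups did not overlap. Its log2 fold change was 0.24 ± 0.047 in H2O2 against control (adjusted p = 0.000991; 0.38 with the offsets), 0.28 ± 0.047 in pretreated H2O2 against H2O2 (adjusted p = 0.000176; 0.18 with the offsets) and 0.52 ± 0.047 in pretreated H2O2 against control (adjusted p = 8.06e-07). In human and mouse cells Pck2 is a known target of ATF4, the transcription factor of the integrated stress response. All 9 genes of a list of that branch were called higher in each comparison, although Chac1 and Sesn2 overlapped between groups in H2O2 against control. Of all genes, 24.6% were called higher in H2O2 against control, 32.4% in pretreated H2O2 against H2O2 and 33.7% in pretreated H2O2 against control. Atf4 itself had log2 fold changes of 0.55, 0.63 and 1.18 in the same order. Whether ATF4 had a part in any change of the members was not tested. Promoter sequence from RefSeq (build GRCm38.p6) was searched for the C/EBP-ATF composite element, spelled TGATGNAA, on both strands over the 250 bases before each annotated start. The motif was found in 3 of 41 windows of the 31 members with a promoter entry (7.32%; Got1, Me3 and Pck2), against 3.45% of 32851 windows of all genes. Pck2 and Got1 were called higher in all comparisons, Got1 in H2O2 against control not with the offsets, while Me3 fell in pretreated H2O2 against H2O2 (-0.69) and against control (-0.48). All 3 matches are shown, so that members that rose and a member that fell can be compared. They are written 5′ to 3′ on the gene's strand with up to 30 bases on either side, and capitals mark the motif, read here as its reverse complement, which begins 103 bases before the start in Pck2 (chr14:55540133-55540200, plus strand), 102 bases before it in Got1 (chr19:43524670-43524737, minus strand) and 34 bases before it in Me3 (chr7:89632754-89632817, plus strand).

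Pck2: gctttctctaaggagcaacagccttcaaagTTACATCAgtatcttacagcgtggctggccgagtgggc
Got1: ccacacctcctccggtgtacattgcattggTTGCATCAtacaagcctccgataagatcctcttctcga
Me3: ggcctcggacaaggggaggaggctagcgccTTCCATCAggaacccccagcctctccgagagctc

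A match is a run of letters and says nothing of binding. The core of the antioxidant response element, TGACNNNGC, was in 4 of the 41 windows (9.76%; Dlst, Idh3g, Mpc1 and Sucla2), against 10.2% of all windows. The NRF1 element was in 1 window (2.44%; Sucla2), against 3.74% of all windows, and the estrogen-related receptor element, TNAAGGTCA, in 0, against 1.14%.

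Idh1, the NADP-dependent isocitrate dehydrogenase of cytosol and peroxisomes, showed the largest change of any member. Idh1 (ENSMUSG00000025950, chr1:65158616-65186500) measured 39.0, 33.2 and 33.1 CPM in pretreated H2O2, 86.2, 81.5 and 79.7 CPM in H2O2 and 93.8, 88.4 and 85.8 CPM in control. The pretreated libraries stood far below the other 6, which overlapped. It fell by 1.23 on the log2 scale in pretreated H2O2 against H2O2 (SE 0.061, adjusted p = 3.1e-09) and by 1.35 against control (SE 0.061, adjusted p = 1.34e-09). H2O2 against control was not called (-0.12 ± 0.059, adjusted p = 0.131), but was with the offsets (-0.31), with the replicate block (-0.11), with only the 6 libraries compared (-0.12) and without pretreated H2O2 replicate 1 (-0.12). Idh2, its mitochondrial counterpart (ENSMUSG00000030541, chr7:80094846-80115392), measured 184, 182 and 183 CPM in pretreated H2O2, 278, 279.6 and 282 CPM in H2O2 and 217, 221 and 224 CPM in control. The 3 groups did not overlap, and the replicates of each lay close together. Idh2 rose by 0.34 ± 0.021 in H2O2 against control (adjusted p = 3.06e-08; 0.07 with the offsets), fell by 0.61 in pretreated H2O2 against H2O2 (SE 0.021, adjusted p = 1.06e-10) and fell by 0.27 in pretreated H2O2 against control (adjusted p = 2.24e-07; -0.45 with the offsets), all on the log2 scale. Idh1 made up 15.2% ± 1.2 of the summed FPKM of Idh1 and Idh2 in pretreated H2O2, 21.6% ± 0.79 in H2O2 and 27.5% ± 1.2 in control (SD, n = 3 each), without overlap between groups.

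The NAD-dependent isocitrate dehydrogenase, a complex of the chains encoded by Idh3a, Idh3b and Idh3g that drives the cycle forward, rose in all 3 chains with H2O2 alone. Idh3b measured 109, 111 and 117 CPM in pretreated H2O2, 135, 133 and 134 CPM in H2O2 and 99.4, 98.2 and 98.2 CPM in control. None of the 3 groups overlapped, and H2O2 was highest. Its log2 fold change was 0.44 ± 0.028 in H2O2 against control (adjusted p = 4.43e-08; 0.19 with the offsets), -0.25 ± 0.028 in pretreated H2O2 against H2O2 (adjusted p = 5.65e-06; -0.07 with the offsets) and 0.19 ± 0.028 in pretreated H2O2 against control (adjusted p = 7.26e-05; 0.11 with the offsets). Idh3a ranged over 142 to 152 CPM in pretreated H2O2, 171 to 177 CPM in H2O2 and 142 to 144 CPM in control. Idh3g ranged over 104 to 110.0 CPM in pretreated H2O2, 130.2 to 138 CPM in H2O2 and 103 to 107 CPM in control. Idh3a and Idh3g rose by 0.28 and 0.35 in H2O2 against control (0.12 and 0.09 with the offsets), fell by 0.24 and 0.31 in pretreated H2O2 against H2O2 (-0.12 and -0.19 with the offsets), and were not called in pretreated H2O2 against control (both 0.04), where the offsets called Idh3g lower (-0.09), while a filter at 1 CPM (both 0.11) and counts divided by 4 (both 0.08) called both higher. Citrate synthase (Cs), the entry enzyme of the cycle, ranged over 448 to 449.9 CPM in pretreated H2O2, 474 to 486 CPM in H2O2 and 397 to 412 CPM in control. It rose by 0.24 in H2O2 against control (adjusted p = 6.12e-07; 0.15 with the offsets) and by 0.15 in pretreated H2O2 against control (adjusted p = 3.46e-05), and fell by 0.09 in pretreated H2O2 against H2O2 (adjusted p = 0.00182), the last being lost with DESeq2 size factors (-0.04), with DESeq2 (-0.04), with a filter at 1 CPM (-0.01) and with the offsets (-0.02).

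The 2-oxoglutarate dehydrogenase complex split between its parts. Ogdh, its E1 component, measured 221, 209.5 and 216 CPM in pretreated H2O2, 286, 266 and 272 CPM in H2O2 and 298, 297 and 301 CPM in control. Groups did not overlap and control was the highest. Ogdh fell by 0.12 on the log2 scale in H2O2 against control (SE 0.029, adjusted p = 0.00369), which the offsets left uncalled at -0.07, by 0.35 in pretreated H2O2 against H2O2 (SE 0.029, adjusted p = 3.81e-07) and by 0.47 in pretreated H2O2 against control (adjusted p = 2.23e-08). Dlst, the E2 succinyltransferase of the same complex, ranged over 227 to 229 CPM in pretreated H2O2, 221 to 231 CPM in H2O2 and 193 to 207 CPM in control. It rose by 0.17 in H2O2 against control (adjusted p = 0.000162; 0.11 with the offsets) and by 0.18 in pretreated H2O2 against control (adjusted p = 8.45e-05), and was not called in pretreated H2O2 against H2O2 (0.01) except with a filter at 1 CPM (0.09).

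Succinyl-CoA ligase yields succinate and a nucleoside triphosphate, pairing the alpha chain from Suclg1 with a GTP-forming beta chain from Suclg2 or an ATP-forming one from Sucla2. Suclg1 measured 119, 116 and 119.9 CPM in pretreated H2O2, 152, 154 and 158 CPM in H2O2 and 113, 119 and 121 CPM in control. H2O2 libraries lay above all others, and pretreated and control libraries overlapped. The log2 fold change of Suclg1 was 0.40 ± 0.031 in H2O2 against control (adjusted p = 2.55e-07), -0.39 ± 0.031 in pretreated H2O2 against H2O2 (adjusted p = 2.08e-07) and 0.0044 ± 0.031 in pretreated H2O2 against control (adjusted p = 0.914), the last called higher with a filter at 1 CPM (0.08). Suclg2 ranged over 109 to 115 CPM in pretreated H2O2, 152 to 163 CPM in H2O2 and 131 to 136 CPM in control. Sucla2 ranged over 80.2 to 82.9 CPM in pretreated H2O2, 94.9 to 97.2 CPM in H2O2 and 78.8 to 85.5 CPM in control. Suclg2 and Sucla2 rose by 0.25 and 0.22 in H2O2 against control and fell by 0.50 and 0.24 in pretreated H2O2 against H2O2, both calls of Sucla2 being lost with the offsets (0.02 and -0.05). In pretreated H2O2 against control Suclg2 fell by 0.26 (adjusted p = 1.65e-05), while Sucla2 was not called (-0.02). Sucla2 accounted for 45.9% ± 1.1 of the summed FPKM of both beta chains in pretreated H2O2, 41.4% ± 0.69 in H2O2 and 41.8% ± 0.99 in control (SD, n = 3 each). The pretreated libraries lay above both other groups, which overlapped.

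**Figure D4:**
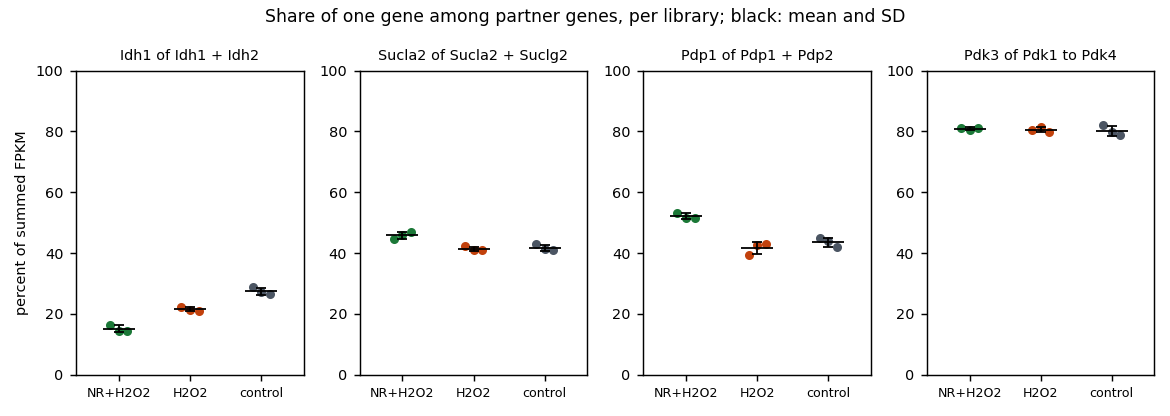
Share of 1 gene in the summed FPKM of its partner genes, in percent, per library (points) with mean and SD (black), for Idh1 of Idh1 + Idh2, Sucla2 of Sucla2 + Suclg2, Pdp1 of Pdp1 + Pdp2 and Pdk3 of the 4 kinases. Idh1 is lowest and Sucla2 and Pdp1 highest after pretreatment (NR+H2O2), at 15.2%, 45.9% and 52.1%, while Pdk3 stays near 80.9% in pretreated H2O2, 80.6% in H2O2 and 80.3% in control.

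Fumarase (Fh1) and mitochondrial malate dehydrogenase (Mdh2), which close the cycle from fumarate to oxaloacetate, were both higher with H2O2 alone than in control, and lower after pretreatment than with H2O2 alone. Fh1 measured 108, 111 and 109 CPM in pretreated H2O2, 147, 147 and 142 CPM in H2O2 and 107, 107 and 108 CPM in control. H2O2 libraries were higher than all others, and pretreated libraries overlapped with control. Fh1 rose by 0.44 ± 0.025 in H2O2 against control (adjusted p = 1.73e-08; 0.29 with the offsets), fell by 0.41 in pretreated H2O2 against H2O2 (SE 0.025, adjusted p = 2.31e-08) and was not called in pretreated H2O2 against control (0.03 ± 0.026, adjusted p = 0.344), in log2 units. That last comparison was called higher with a filter at 1 CPM (0.11) and with counts divided by 4 (0.07). Mdh2 measured 451, 455 and 455 CPM in pretreated H2O2, 556, 574 and 575 CPM in H2O2 and 406, 427 and 416 CPM in control, 3 groups without overlap. Mdh2 rose by 0.45 ± 0.023 in H2O2 against control (adjusted p = 5.89e-09; 0.08 with the offsets) and fell by 0.33 in pretreated H2O2 against H2O2 (SE 0.023, adjusted p = 7.96e-08; -0.14 with the offsets). Its direction in pretreated H2O2 against control was 0.12 ± 0.023 in the fit as reported (adjusted p = 0.000485) and turned to -0.06 with the offsets (adjusted p = 0.0399).

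Of the 4 genes of the malate-aspartate shuttle and glutamate entry, Got1 and Glud1 rose after pretreatment relative to H2O2 alone, Mdh1 fell and Got2 was not called. In that comparison 32.4% of all genes rose and 31.3% fell. Got1, the cytosolic aspartate aminotransferase (ENSMUSG00000025190, chr19:43499752-43524605), measured 182, 175 and 186 CPM in pretreated H2O2, 157, 161 and 160.0 CPM in H2O2 and 132, 132 and 136 CPM in control. The 3 groups did not overlap. Got1 had a log2 fold change of 0.18 ± 0.027 in pretreated H2O2 against H2O2 (adjusted p = 6.76e-05; 0.30 with the offsets), 0.44 ± 0.027 in pretreated H2O2 against control (adjusted p = 2.25e-08; 0.28 with the offsets) and 0.26 ± 0.027 in H2O2 against control (adjusted p = 4.93e-06), the last turning to -0.02 with the offsets. Glud1, glutamate dehydrogenase, which makes 2-oxoglutarate from glutamate, measured 291, 278 and 283 CPM in pretreated H2O2, 249, 242 and 242 CPM in H2O2 and 232, 230.2 and 227 CPM in control. Again no groups overlapped, with pretreated libraries the highest. Glud1 rose by 0.22 ± 0.024 in pretreated H2O2 against H2O2 (adjusted p = 4.25e-06), by 0.31 ± 0.024 against control (adjusted p = 1.86e-07) and by 0.09 ± 0.024 in H2O2 against control (adjusted p = 0.00827), the last left at 0.05 and uncalled by the offsets.

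Got2, the mitochondrial aspartate aminotransferase, measured 433, 417 and 426 CPM in pretreated H2O2, 435, 438 and 439.9 CPM in H2O2 and 361, 354 and 352 CPM in control. Both treated groups lay above control. They lay close to each other, with every pretreated library below every H2O2 library. Got2 also has a copy, Got2-ps1, with a mean of 558 counts against 25628 counts for Got2. Got2 rose by 0.30 ± 0.021 in H2O2 against control (adjusted p = 1.06e-07; 0.15 with the offsets) and by 0.26 ± 0.021 in pretreated H2O2 against control (adjusted p = 2.93e-07; 0.14 with the offsets), and was not called in pretreated H2O2 against H2O2 (-0.04 ± 0.021, adjusted p = 0.107) except with library totals and with limma, filtered or not, which called it lower (-0.07 in each). Mdh1, the cytosolic malate dehydrogenase of the shuttle, ranged over 185 to 205 CPM in pretreated H2O2, 266 to 280.4 CPM in H2O2 and 210.2 to 222 CPM in control, and rose by 0.35 in H2O2 against control (adjusted p = 3.55e-06; 0.11 with the offsets). In pretreated H2O2 it fell by 0.49 against H2O2 (adjusted p = 1.21e-07; -0.30 with the offsets) and by 0.14 against control (adjusted p = 0.00482; -0.06 and uncalled with a filter at 1 CPM).

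The malic enzymes Me2 and Me3, which turn malate into pyruvate in mitochondria, and Nnt, the inner membrane transhydrogenase that makes NADPH, were all lower after pretreatment than with H2O2 alone. Me2 was nearly the whole of the pair, at 98.8%, 98.4% and 98.3% of their summed FPKM in pretreated H2O2, H2O2 and control. It ranged over 147 to 156 CPM in pretreated H2O2, 174 to 180.0 CPM in H2O2 and 143 to 147 CPM in control, fell by 0.21 in pretreated H2O2 against H2O2 (adjusted p = 2.55e-05; -0.12 with the offsets) and rose by 0.29 in H2O2 against control (adjusted p = 2.18e-06). Me2 was also called higher in pretreated H2O2 against control (0.08, adjusted p = 0.0328; 0.12 with the offsets), although these libraries overlapped and the call was lost when control replicate 1 or 3, H2O2 replicate 2 or 3, or pretreated H2O2 replicate 1 or 3 was left out (0.06 to 0.07), with no filter on low counts or only the 6 libraries compared (0.06), and with library totals or limma (0.03). Me3 measured 3.86, 4.06 and 3.13 CPM in pretreated H2O2, 5.97, 5.57 and 6.33 CPM in H2O2 and 4.65, 5.86 and 4.88 CPM in control. The pretreated libraries were the lowest, and H2O2 and control libraries overlapped. Me3 fell by 0.69 on the log2 scale in pretreated H2O2 against H2O2 (SE 0.14, adjusted p = 0.000977) and by 0.48 against control (SE 0.14, adjusted p = 0.0113), the fall against control losing its call without control replicate 2 (-0.38). Nnt ranged over 62.6 to 67.4 CPM in pretreated H2O2, 75.3 to 78.3 CPM in H2O2 and 76.9 to 81.0 CPM in control. It fell by 0.25 in pretreated H2O2 against H2O2 (adjusted p = 7.48e-05) and by 0.30 against control (adjusted p = 1.36e-05), and was not called in H2O2 against control (-0.05).

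**Figure D5:**
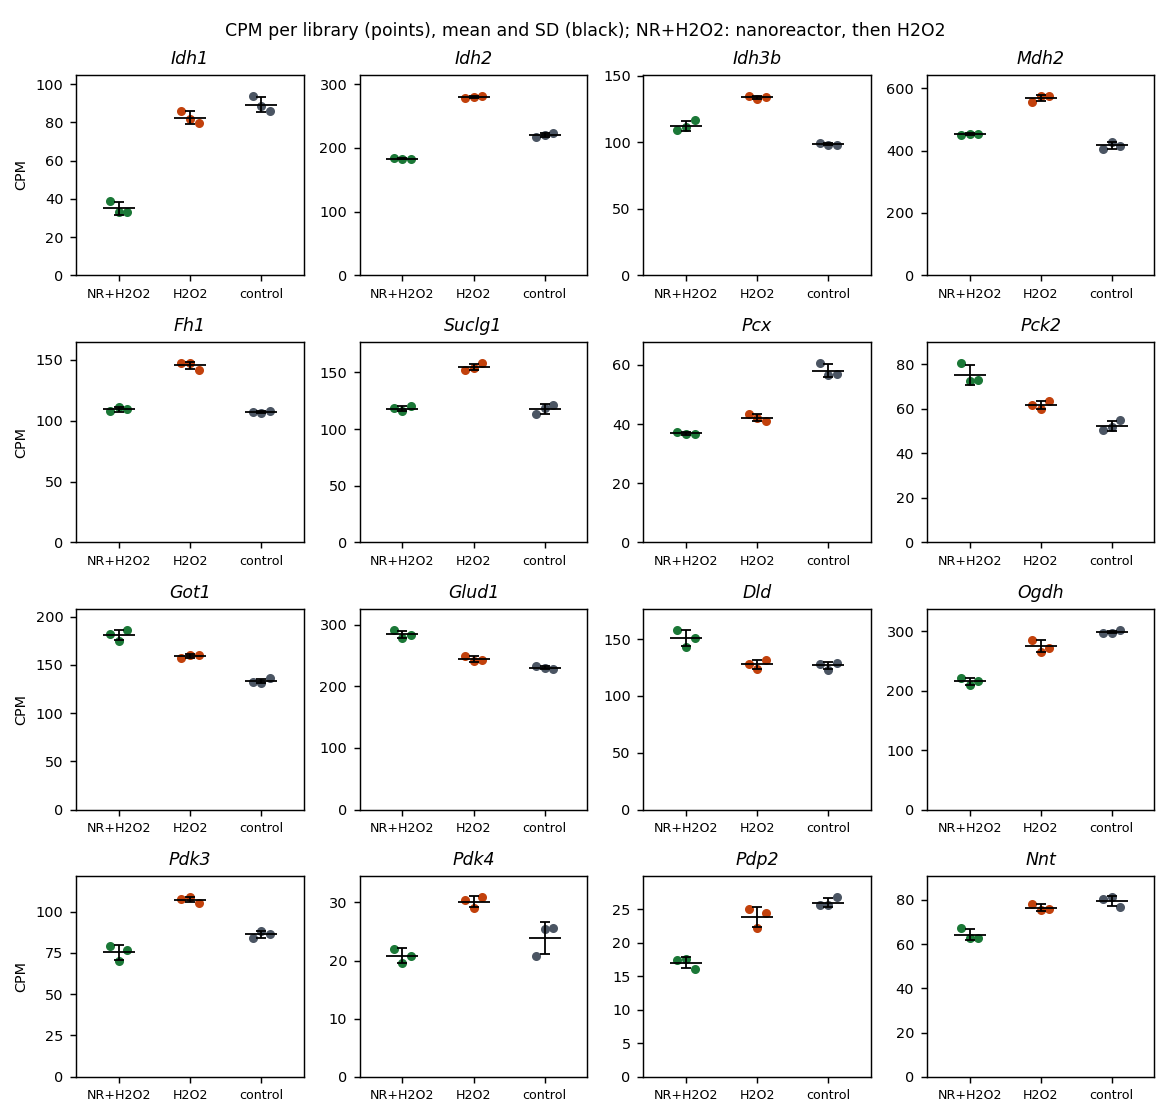
CPM of selected genes in each library (points), with the mean and SD of each group of 3 in black; NR+H2O2 is the pretreated H2O2 group and every axis starts at 0. Idh1 averages 35.1 CPM in pretreated H2O2 against 82.5 CPM in H2O2, Idh2, Fh1, Suclg1 and Mdh2 peak in H2O2, Pcx and Ogdh are highest in control, and Pck2, Got1, Glud1 and Dld are highest after pretreatment.

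Genes beside the 35 were read from lists of the same pathways. The counts given here and in the next paragraph stand beside these shares over all genes. In H2O2 against control, 24.6% were called higher and 24.1% lower, and in pretreated H2O2 against H2O2, 32.4% and 31.3%. Succinate dehydrogenase and its assembly factors had 6 of 8 genes called higher and none lower in H2O2 against control, and 8 of 8 called lower in pretreated H2O2 against H2O2, from -0.92 (Sdhaf1) to -0.17 (Sdha) on the log2 scale. Its members Sdhb, Sdhc and Sdhd rose by 0.34, 0.40 and 0.47 in H2O2 against control. The mitochondrial carriers of cycle intermediates had 3 of 6 genes called higher and 1 lower in H2O2 against control and 6 of 6 lower in pretreated H2O2 against H2O2, among them the aspartate-glutamate carriers Slc25a12 (-0.62) and Slc25a13 (-0.61) and the oxoglutarate carrier Slc25a11 (-0.59). A list for the supply of cofactors to the pyruvate and 2-oxoglutarate dehydrogenase complexes includes the enzymes that make and attach lipoic acid. Against H2O2 alone, 5 of its 5 genes fell, among them the lipoate transferases Lipt1 (-1.43) and Lipt2 (-1.25) and the lipoate synthase Lias (-0.32). In H2O2 against control 2 of these 5 rose and none fell.

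RNA of most genes listed for glutamine and alanine entry was higher after pretreatment than with H2O2 alone, as for Glud1 and Got1. The list also holds Glul (0.18), whose enzyme makes glutamine from glutamate. In pretreated H2O2 against H2O2, 4 of 5 genes rose and none fell, with the mitochondrial alanine aminotransferase Gpt2 at 1.11 ± 0.055 (adjusted p = 3.11e-09). In H2O2 against control, 2 rose, led by Gls2 (0.70 ± 0.17, adjusted p = 0.00412), and 2 fell, among them Gpt2 (-0.18). Of the enzymes beside the cycle, 1 of 7 rose and 2 fell in H2O2 against control, among the falls Pdpr, a regulatory subunit of the phosphatase, at -0.74, and 3 rose and 3 fell in pretreated H2O2 against H2O2. Propionyl-CoA and ketone entry had 2 of 6 called higher and 1 lower in H2O2 against control, then 1 higher and 5 lower in pretreated H2O2 against H2O2. Regulators of mitochondrial genes had 0 of 8 called higher and 4 lower in H2O2 against control, and 5 higher and 1 lower in pretreated H2O2 against H2O2, with Ppard at 1.41 ± 0.048 and the coactivator Ppargc1b at -1.90 ± 0.28. Ppargc1b was rare, with a mean of 85.6 counts over all libraries and 0.366 CPM in pretreated H2O2, so depth limits its precision. In the ATF4 list, the largest changes in pretreated H2O2 against H2O2 were Sesn2 (4.21), Trib3 (3.05) and Chac1 (2.68), while Ddit3 led in H2O2 against control (0.78). Of the 5 fibroblast markers, Dcn did not pass the low-count filter, and the 4 tested were called lower in each comparison. Pdgfra and Pdgfrb fell by 0.91 and 0.88 in H2O2 against control and by 1.55 and 1.63 in pretreated H2O2 against H2O2.

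In pretreated H2O2 against control, 33.7% of all genes were called higher and 29.5% lower. There, succinate dehydrogenase had 2 of 8 genes called higher and 3 lower. The intermediate carriers had 0 of 6 higher and 4 lower, and the cofactor list 0 of 5 higher and 4 lower. The glutamine and alanine list, Glul included, had 5 of 5 higher. The enzymes beside the cycle had 2 of 7 higher and 4 lower. Propionyl-CoA and ketone entry had 0 of 6 higher and 5 lower, and the regulators 4 of 8 higher and 1 lower. The largest changes there were those of Sesn2 (4.34), Trib3 (3.36), Chac1 (3.02), Ppargc1b (-2.68, from a mean of only 85.6 counts), Pdgfrb (-2.51) and Pdgfra (-2.46). Medians in pretreated H2O2 against H2O2 were -0.59 in the carriers, -0.58 in propionyl-CoA and ketone entry, -0.38 in succinate dehydrogenase, 0.33 in the regulators and 0.92 in the ATF4 list, against 0.02 over all genes tested.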

How the data were processed

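Per the labels' protocols, RNA was extracted with TRIzol, selected by poly(A) and made into dUTP strand-specific libraries that were sequenced as paired reads of 150 bases on an Illumina instrument. Neither aligner, counting program nor use of strand in counting is named in the sources used here. The submitters' processing notes name only the human build hg38, but the tables hold mouse Ensembl identifiers: 30318 of 30411 genes were found in GENCODE M21 (GRCm38), 99.5% with the same start.

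The authors deposited estimated counts per gene, in whole numbers that are not scaled to library size; they are treated as estimates because 9836 values equal 4, against 4842 equal to 3 and 3136 equal to 5, so a count need not be a single fragment. The authors also deposited FPKM for 30411 genes, those counted in at least 1 library; all 9 libraries of the 3 groups were used. The fit had assumed raw counts, and an alternative divided all counts by 4.

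Counts were fitted in edgeR 4.0.16 (R 4.3.3) with TMM scaling, the default low-count filter by group (18092 genes, including all 35 members), 1 mean per group over 9 libraries and the quasi-likelihood test, with Benjamini-Hochberg adjustment over all genes tested. The steps were run on simulated counts with known changes in a small part of the genes, in the H2O2 group only. That simulation did not cover changes in as many genes as here, nor the pattern of low counts, so it does not test the scaling. CPM are TMM-scaled. Totals of 55395418 to 67215208 counts per library give 128 mean counts for the rarest member, Pdk1, which limits its precision. Alternatives used DESeq2 1.42.0, limma 3.58.1 on log2(FPKM + 1) or log2(FPKM + 0.1), other scalings and filters, offsets for transcript length and GC content (smooth terms from mgcv 1.9.3), the replicate number as a block, and each library left out. The members' median transcript length was 2767 bp and GC content 47.2%, against 2839 bp and 49.5% over all genes with a value. Values in every library are given for members among the 5 largest rises or falls among called members of any comparison, and others by range. Of the other pathway lists, the 6 genes with the largest called change per comparison and a mean of at least 1 CPM are named, except some genes that are not reported here, and further list genes were picked after their values were seen. Members and lists were chosen with earlier results of these data known.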

Additional observations from a re-analysis of the deposited data

How the results depend on the processing

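Under the alternatives run, counts of called members and of all called genes stayed within 1.5 times the values reported, except for the counts named next. With only genes of at least 1 CPM kept, 8 members were called higher in pretreated H2O2 against H2O2 (5 as reported) and 18 in pretreated H2O2 against control (11 as reported). Members past 1.5-fold in those comparisons numbered 2 each with limma on log2(FPKM + 1), filtered or not, against 4 each. The pseudocount of that fit makes folds smaller at low FPKM. Without a filter on low counts the median log2 fold change of all genes in pretreated H2O2 against H2O2 was 0.179, and with limma at a pseudocount of 0.1 it was -0.143, against 0.019. The replicate block used the replicate numbers, which no label ties to a shared batch. Same-numbered libraries of different groups correlated from -0.054 to 0.130 in their deviations from group means, and libraries with different numbers from -0.128 to 0.102. These ranges overlap, so they do not settle whether the numbers mark a shared batch. With the replicate block, members called higher and lower were 23 and 3, 5 and 25, and 12 and 11 in the 3 comparisons, and Pdp1 in H2O2 against control (-0.23, adjusted p = 0.0535) lost its call. The block added calls for Idh1 in H2O2 against control (-0.11, adjusted p = 0.0243), Dlat in pretreated H2O2 against H2O2 (-0.10, adjusted p = 0.0211) and Pdhb in pretreated H2O2 against control (0.08, adjusted p = 0.0461), and changed no other member's call.

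Signs that turned were mostly those of log2 fold changes near 0, and the cause was not tested. Size factors are those of DESeq2 in edgeR, totals leave out TMM, offsets are for length and GC content, and limma is at a pseudocount of 1 unless stated. In H2O2 against control: Mpc1, 0.31 as reported, gave -0.08 (offsets). Pdha1, 0.09 as reported, gave -0.03 (offsets). Dlat, 0.02 as reported, gave -0.00089 (size factors), -0.00093 (DESeq2) and -0.03 to 0.06 (each library left out). Pdhx, 0.08 as reported, gave -0.09 (offsets). Dld, 0.01 as reported, gave -0.01 (size factors, DESeq2), -0.16 (offsets, called), -0.0014 (limma, limma at 0.1, unfiltered limma) and -0.01 to 0.03 (each library left out). Pdk2, 0.09 as reported, gave -0.07 (offsets) and -0.03 to 0.20 (each library left out). Pdp2, -0.12 as reported, gave 0.19 (offsets). Got1, 0.26 as reported, gave -0.02 (offsets). In pretreated H2O2 against H2O2: Pdha1, -0.02 as reported, gave 0.03 (size factors, DESeq2), 0.06 (the 1 CPM filter), 0.10 (offsets) and 0.02 (counts divided by 4). Pdhx, -0.04 as reported, gave 0.01 (size factors, DESeq2, counts divided by 4), 0.05 (the 1 CPM filter) and 0.11 (offsets). Dlst, 0.01 as reported, gave -0.02 (totals, limma, limma at 0.1, unfiltered limma), -0.01 (no filter) and -0.02 to 0.02 (each library left out). Got2, -0.04 as reported, gave 0.01 (size factors, DESeq2), 0.04 (the 1 CPM filter) and 0.0031 (counts divided by 4). In pretreated H2O2 against control: Mpc1, 0.04 as reported, gave -0.0014 (totals), -0.11 (offsets), -0.0048 (limma, unfiltered limma), -0.01 (limma at 0.1) and -0.04 to 0.12 (each library left out). Pdhx, 0.05 as reported, gave -0.01 to 0.07 (each library left out). Pdp1, -0.11 as reported, gave 0.04 (offsets). Idh3a, 0.04 as reported, gave -0.01 (totals, limma, limma at 0.1, unfiltered limma). Idh3g, 0.04 as reported, gave -0.0044 (totals), -0.09 (offsets) and -0.01 (limma, limma at 0.1, unfiltered limma). Suclg1, 0.0044 as reported, gave -0.04 (totals, limma, limma at 0.1, unfiltered limma), -0.01 (no filter, 6 libraries) and -0.03 to 0.02 (each library left out). Sucla2, -0.02 as reported, gave 0.01 (size factors, DESeq2), 0.06 (the 1 CPM filter), 0.02 (counts divided by 4) and -0.06 to 0.0019 (each library left out). Fh1, 0.03 as reported, gave -0.01 (totals, offsets, limma, limma at 0.1, unfiltered limma). Mdh2, 0.12 as reported, gave -0.06 (offsets).

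Depth limits Pdk1, Pdk2 and Me3, with means of 128, 216 and 309 counts. Neither nanoreactor exposure without H2O2 nor separate cultures are given, and strand use in counting is not given.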
